A study of Mus musculus with 19 samples.

Results

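Expression of the genes that process and present antigen on MHC class I was read in the suprarenal abdominal aorta (SRA) of 19 mice by bulk RNA-Seq. The set held 10 genes chosen by name, H2-K1, H2-D1, B2m, Tap1, Tap2, Tapbp, Psmb8, Psmb9, Psmb10 and Nlrc5, and all 10 were found among the 20408 genes of the deposited matrix. Each of the 10 was among the 14845 genes tested, which reached 10 normalized counts in 4 or more mice. Values are normalized counts, which are the reads of a gene in a mouse divided by that mouse's size factor.

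The animals were male ApoE-/- mice on a C57BL/6J background, 8 weeks old in the labels, on regular chow, and all of them carried SMA-CreERT2, a tamoxifen-inducible Cre recombinase under a smooth muscle actin promoter, and received tamoxifen. The study's methods give 8 weeks as the age when tamoxifen was begun, and the infusion came only after the injections and a rest. There were 5 saline-infused and 5 Ang II-treated IKKb+/+ mice, and 4 saline-infused and 5 Ang II-treated IKKb-/- mice, the latter with both Ikkb alleles floxed (Flox/Flox). Ang II was given for 24 h from a subcutaneous osmotic pump, at a dose that the labels put between 500 and 1000 ng/kg/min and the study's methods at 1000 ng/kg/min. IKKb is the kinase that releases NF-kB, and it was removed in smooth muscle cells, so that endothelial, adventitial and immune cells of the aorta kept the gene.

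MHC class I molecules show short peptides from inside the cell to CD8 T cells. The peptides are cut by the proteasome, in which 3 catalytic subunits can be exchanged for the immunoproteasome subunits, are pumped into the endoplasmic reticulum by the TAP transporter, and are loaded onto a heavy chain paired with beta 2-microglobulin. Interferons raise the genes of the whole route, through IRF1 and, for class I itself, through the transactivator NLRC5, and NF-kB sites lie in class I promoters. Vascular endothelial cells carry much class I, and smooth muscle cells carry less.

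Reads on genes ran from 11382573 to 19906694 per mouse, and the lowest of all values of the 10 genes was 22.5 normalized counts, for Psmb9 in an Ang II-treated IKKb+/+ mouse. Ikbkb, the targeted gene, had fewer normalized counts in IKKb-/- mice (533 ± 78.9, SD, n = 9) than in IKKb+/+ mice (699.7 ± 66.8, SD, n = 10), and 8 of the 9 IKKb-/- mice lay below the lowest IKKb+/+ mouse (two-sided exact permutation test, p = 0.000141). Mitochondrial transcripts held 5.99 to 38.7% of reads. Mouse X2406 (IKKb-/-, saline) with 38.7% and mouse X2385 (IKKb-/-, Ang II) with 37.2% had the highest shares, and the counts of genes past the threshold were also taken without both. The mice of each group carried their own run of ID numbers, so that a batch of animals and the groups cannot be told apart.

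In GRCm38, 7 of the 10 protein-coding genes lay on chromosome 17 within 1.35 Mb of each other, in the MHC. Tapbp (chr17:33915899-33929292, plus strand) was followed by H2-K1 (chr17:33996017-34000347, minus strand), by the block of Psmb9 (chr17:34181987-34187764, minus strand), Tap1 (chr17:34187553-34197225, plus strand), Psmb8 (chr17:34197721-34201454, plus strand) and Tap2 (chr17:34203527-34216321, plus strand), and by H2-D1 (chr17:35262730-35267499, plus strand). The block from Psmb9 to Tap2 spanned 34.3 kb. Nlrc5 (chr8:94434356-94527272, plus strand) and Psmb10 (chr8:105935735-105938444, minus strand) lay on chromosome 8 and B2m (chr2:122147686-122153083, plus strand) on chromosome 2. Psmb9 and Tap1 overlapped by 212 bases on opposite strands. B2m lay within Patl2 on the other strand, Tapbp shared 3422 bases with Zbtb22 on its own strand, and antisense transcripts crossed Psmb8 and Tap2 (Gm20496), Psmb10 (Gm16156) and the start of Nlrc5 (9330175E14Rik). The libraries were stranded per the study's methods, and whether the read counts used the strand is not given in the sources used here, so sharing of reads across strands in these stretches was not tested. Of all 84-base windows, the read length, in the transcripts of a gene, 4.71% for H2-D1, 2.04% for H2-K1, 0.63% for Tapbp and 0% for the other 7 occurred also in another gene, so read sharing between class I copies could touch a small part of the heavy chain values.

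Promoter sequences show the letters around annotated starts of the genes whose levels are described next. RefSeq windows of 300 bases (250 before to 50 after the RefSeq start, GRCm38.p6) were found for 8 of the 10 genes, all but Tap2 and Nlrc5. Those of H2-D1, Psmb8, Psmb9 and Tapbp lay inside the gene spans given above, so their RefSeq starts differ from the ends of those spans. Those printed are the promoters of the classical heavy chains, of Psmb8, and of Tap1, whose window shares 275 bases with that of Psmb9 read in the other direction. Capitals mark matches to 3 motifs searched on both strands, the interferon gamma-activated site (GAS) motif TTCNNNGAA, an IRF-type motif GAANNGAAA and a kB-type motif GGGNNTTCC.
H2-K1 (chr17:34000298-34000597, minus strand): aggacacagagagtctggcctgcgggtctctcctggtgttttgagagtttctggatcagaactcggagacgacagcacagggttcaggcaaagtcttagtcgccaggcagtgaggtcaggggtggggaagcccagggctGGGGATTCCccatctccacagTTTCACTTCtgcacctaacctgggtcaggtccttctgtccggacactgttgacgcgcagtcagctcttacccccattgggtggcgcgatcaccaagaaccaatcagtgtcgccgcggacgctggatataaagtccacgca
H2-D1 (chr17:35262844-35263143, plus strand): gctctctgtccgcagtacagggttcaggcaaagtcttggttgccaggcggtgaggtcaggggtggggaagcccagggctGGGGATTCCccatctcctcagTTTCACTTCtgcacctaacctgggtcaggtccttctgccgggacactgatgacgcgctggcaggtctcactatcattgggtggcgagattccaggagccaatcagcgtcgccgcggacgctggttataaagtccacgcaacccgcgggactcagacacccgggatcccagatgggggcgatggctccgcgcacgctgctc
Psmb8 (chr17:34197945-34198244, plus strand): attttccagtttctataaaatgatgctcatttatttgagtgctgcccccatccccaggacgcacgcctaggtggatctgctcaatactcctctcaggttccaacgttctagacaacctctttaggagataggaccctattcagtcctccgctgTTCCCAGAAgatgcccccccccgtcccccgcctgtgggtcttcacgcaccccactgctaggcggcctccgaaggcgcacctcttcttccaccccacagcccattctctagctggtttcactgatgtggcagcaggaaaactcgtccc
Tap1 (chr17:34187306-34187605, plus strand): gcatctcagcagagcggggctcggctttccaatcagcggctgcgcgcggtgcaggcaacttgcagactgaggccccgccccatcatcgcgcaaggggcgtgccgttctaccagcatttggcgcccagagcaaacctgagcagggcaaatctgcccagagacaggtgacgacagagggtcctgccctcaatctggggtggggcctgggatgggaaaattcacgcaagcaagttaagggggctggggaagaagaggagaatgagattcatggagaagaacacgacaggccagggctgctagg

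Both heavy chain promoters held a kB-type match followed by an IRF-type match. In H2-K1 they began 111 and 90 bases before the start and in H2-D1 171 and 150 bases before it, so that 12 bases stood between them in each. The kB-type motif was in 5.82% and the IRF-type motif in 7.52% of the 32851 mouse promoter windows of this length. In these exact letters, neither was in a window of the other 6 genes. Forms of these sites with other letters or spacing were not searched. The GAS motif was in 8.3% of windows and, among these genes, in Psmb8 alone. It began 97 bases before the RefSeq start, and thus inside the Psmb8 span given above. The Tap1 window held none of these 3 motifs. The Y-box core CCAAT, the letters bound by NF-Y, was in 37.4% of windows and in 6 of the 8 genes, H2-K1, H2-D1, B2m, Tap1, Tapbp and Psmb9. The motifs did not overlap one another in these windows. A match is a stretch of letters and not a measured binding site.

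The 10 genes were expressed at very different levels in saline-infused IKKb+/+ aorta. Per kb of annotated exon, B2m, the light chain, stood highest at 9798 ± 1361 normalized counts (SD, n = 5). The heavy chains followed, with 2329 ± 283 for H2-D1 and 1486 ± 194 for H2-K1, and then the loading bridge Tapbp with 648 ± 57.6. Psmb10 (112 ± 9.56) and Tap2 (107 ± 7.10) came next, and their ranges over the 5 mice overlapped. Below them were Psmb8 (68.0 ± 9.46), Tap1 (37.9 ± 4.99) and Psmb9 (29.2 ± 5.93), of which the last pair overlapped. Nlrc5, the transactivator, was lowest at 13.2 ± 4.69 per kb, and neighbours in this order other than the 2 overlapping pairs had separate ranges. The immunoproteasome subunits were below the constitutive subunits they replace, per kb, since Psmb5 stood at 297 ± 48.6, Psmb6 at 519.7 ± 77.7 and Psmb7 at 254 ± 17.9. The length used was the union of all annotated exons, 3381 bases for Psmb8 and 899 for Psmb5, not that of the expressed transcript. All per kb levels and their order depend on it. In normalized counts, Psmb8 had a mean of 230 and Psmb5 of 267, with overlapping ranges. Those means were 107 for Psmb9 and 973 for Psmb6, and 190 for Psmb10 and 870 for Psmb7.

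In IKKb+/+ mice, class I presentation genes were lower after 24 h of Ang II at most steps of the route. Of the 10 genes, 8 fell (limma, adjusted p under 0.1 and fold change above 1.2), against 4.33% of all genes tested that fell, and 7 had every Ang II-treated mouse below every saline-infused mouse, against 4.47% of all genes. All 10 log2 fold changes were below 0, as were 49.3% of those of all genes, and their median was -0.72 beside 0.01 over all genes. Of the same genes in IKKb-/- mice, 0 passed by limma (0 by edgeR, 1 by DESeq2), where 2.69% of all genes fell and 2.59% rose, and 1 had an unadjusted p under 0.05. There too all 10 were below 0 (50.4% of all genes), and the median was -0.29, or -0.15 without mouse X2383. In a whole aorta, fewer cells of a type and less RNA per cell cannot be told apart.

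**Figure D1:**
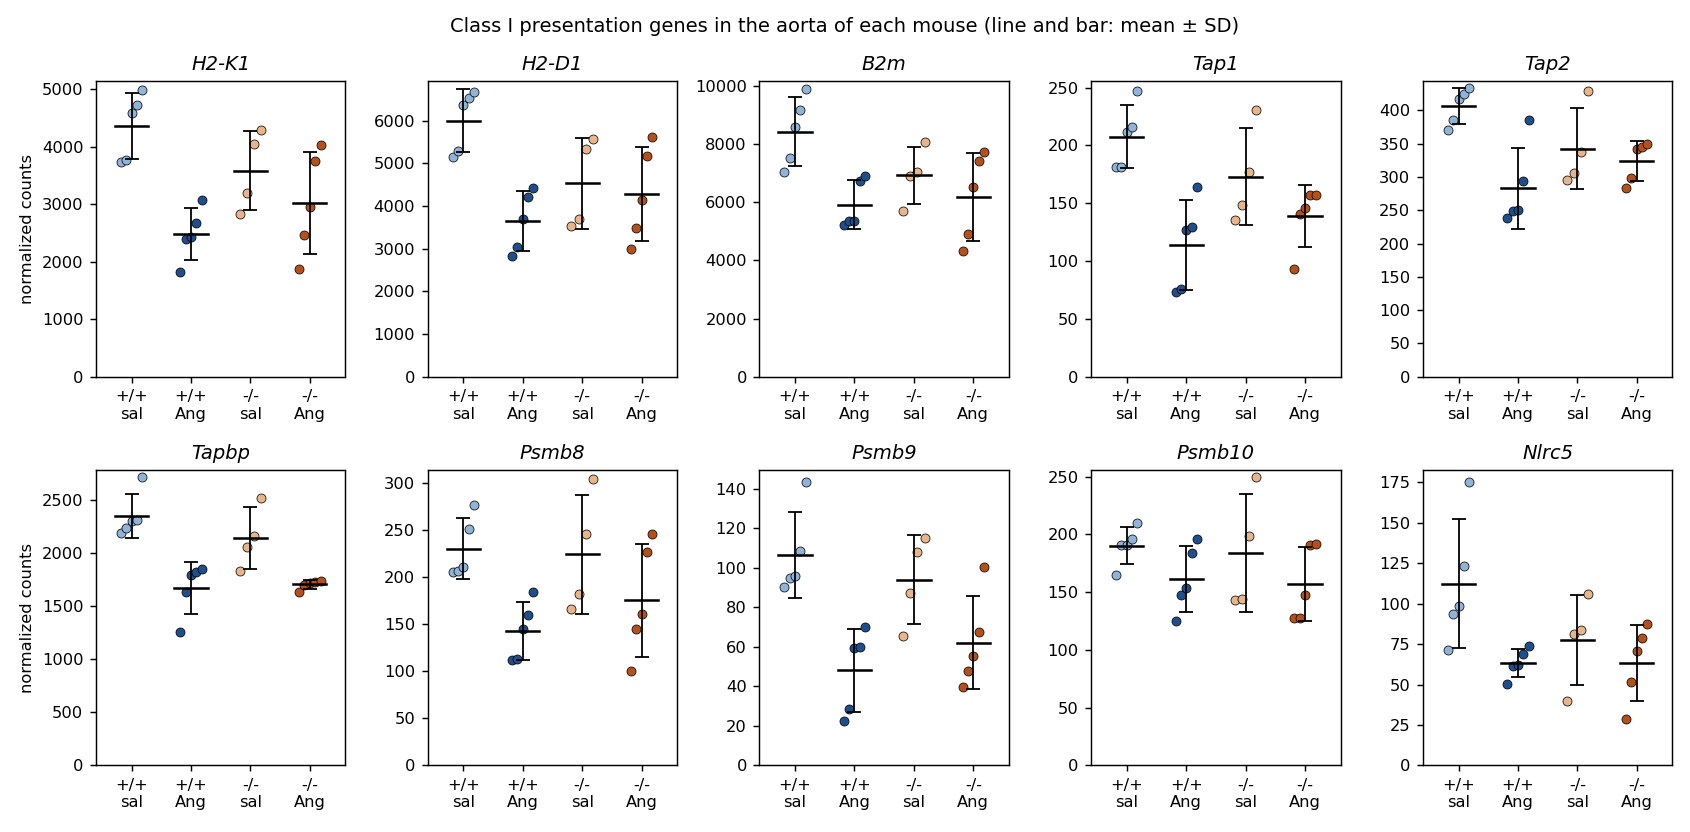
Normalized counts (vertical axes, from 0, a scale for each gene) of the 10 genes in each mouse, with a point for each mouse, in 4 groups along the horizontal axis, and the line and bar giving mean ± SD. The IKKb+/+ Ang II points lie below all IKKb+/+ saline points for 7 genes and overlap them for Tap2, Psmb10 and Nlrc5.

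The heavy chains bind the peptide and are what the T cell receptor touches. H2-K1 (ENSMUSG00000061232.16) had 3741, 3779, 4597, 4728 and 4988 normalized counts in the 5 saline-infused IKKb+/+ mice and 1826, 2393, 2438, 2667 and 3083 in the 5 Ang II-treated ones. Every Ang II-treated mouse was below every saline-infused mouse, and H2-K1 fell by 43.6% (log2 fold change -0.83, 95% interval -1.21 to -0.44, limma adjusted p = 0.0171). The IKKb-/- aortas held 2826, 3192, 4047 and 4288 with saline and 1877, 2472, 2952, 3762 and 4026 with Ang II. Here the groups overlapped, with Ang II-treated mice both at the bottom and near the top of the range (log2 fold change -0.28, 95% interval -0.69 to 0.12, limma adjusted p = 0.486).

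H2-D1 (ENSMUSG00000073411.12), the other classical heavy chain of this strain, followed the same order. With saline the IKKb+/+ mice had 5153, 5281, 6375, 6538 and 6686 normalized counts, and with Ang II they had 2839, 3045, 3708, 4209.6 and 4427. The groups were separate and the level fell by 39.8% (log2 fold change -0.73, 95% interval -1.10 to -0.36, limma adjusted p = 0.0263). The IKKb-/- mice had 3527, 3698, 5338 and 5574 with saline and 3003, 3480.4, 4131, 5171 and 5623 with Ang II. Saline-infused IKKb-/- mice split into a lower and a higher pair, the Ang II-treated mice spanned both, and the log2 fold change was -0.091 (95% interval -0.49 to 0.30, limma adjusted p = 0.851).

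B2m (ENSMUSG00000060802.8) is the light chain shared by class I molecules. Its normalized counts were 7025, 7504, 8569, 9150.2 and 9883 in saline-infused and 5223, 5354, 5356, 6741 and 6897 in Ang II-treated IKKb+/+ mice. The highest Ang II-treated mouse was just under the lowest saline-infused mouse, and B2m fell by 29.8% (log2 fold change -0.51, 95% interval -0.84 to -0.18, limma adjusted p = 0.068). This call rested on single mice, since the adjusted p was 0.1 or more without any one of X2350, X2358, X2359, X2372, X2373 and X2376, and was 0.0471 to 0.171 over the 10 mice left out in turn. Counts in IKKb-/- mice were 5681, 6911, 7039 and 8066 with saline and 4326, 4912, 6535, 7426 and 7711 with Ang II, and the groups overlapped (log2 fold change -0.19, limma adjusted p = 0.606).

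Tap1 and Tap2 form the heterodimer that carries peptides into the endoplasmic reticulum. Tap1 (ENSMUSG00000037321.17) had 182, 182, 212, 216 and 247 normalized counts in saline-infused and 72.8, 75.5, 127, 129 and 164 in Ang II-treated IKKb+/+ mice. The Ang II-treated mice ranged widely but all lay below the saline-infused mice, and Tap1 fell by 47.2% (log2 fold change -0.92, 95% interval -1.38 to -0.47, limma adjusted p = 0.0217). Tap2 (ENSMUSG00000024339.12) had 371, 385, 418, 424 and 433 with saline and 238, 249, 249.8, 293 and 385 with Ang II. A single Ang II-treated mouse, X2356, reached the saline range, and Tap2 fell by 31.3% (log2 fold change -0.54, 95% interval -0.82 to -0.27, limma adjusted p = 0.0266).

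Neither subunit of the transporter passed in IKKb-/- mice. Tap1 had 136, 149, 177 and 231 normalized counts with saline and 92.9, 140.5, 146, 157 and 157 with Ang II, with 1 low Ang II-treated mouse, X2383 (log2 fold change -0.31, limma adjusted p = 0.526). Tap2 had 295, 306, 338 and 429 and 284, 298, 341, 345 and 349.7, and the Ang II-treated mice lay within the saline range but for the lowest of them (log2 fold change -0.070, limma adjusted p = 0.846).

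Tapbp (ENSMUSG00000024308.15) encodes tapasin, which holds the empty class I molecule at the transporter while peptide is loaded. It had 2189, 2238, 2299, 2318 and 2714 normalized counts in saline-infused and 1260.2, 1631, 1798, 1819 and 1848 in Ang II-treated IKKb+/+ mice. The groups were separate and Tapbp fell by 29.4% (log2 fold change -0.50, 95% interval -0.72 to -0.28, limma adjusted p = 0.0134), with the smallest adjusted p of the 10. With Ikkb deleted, it had 1833, 2054, 2162 and 2523 with saline and 1634, 1702, 1719.7, 1729.6 and 1740.3 with Ang II. Tapbp was the only 1 of the 10 genes with separate groups in IKKb-/- mice, where 2.88% of all genes had every Ang II-treated mouse below every saline-infused mouse. Its log2 fold change there was -0.32 (95% interval -0.55 to -0.086, limma adjusted p = 0.133), and DESeq2 called it (adjusted p = 0.0725).

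Psmb8, Psmb9 and Psmb10 encode the catalytic subunits of the immunoproteasome. Psmb8 (ENSMUSG00000024338.15) had 206, 206, 211, 251 and 276 normalized counts in saline-infused and 112, 113, 145, 159 and 184 in Ang II-treated IKKb+/+ mice. The groups were separate and Psmb8 fell by 38.5% (log2 fold change -0.70, 95% interval -1.17 to -0.24, limma adjusted p = 0.0755), a call that was kept without X2352 or X2356 and lost without any other of the 10 mice. Psmb9 (ENSMUSG00000096727.3), next to Tap1 on the chromosome, had 90.5, 94.9, 96.0, 108 and 144 with saline and 22.5, 28.7, 59.6, 59.8 and 70.2 with Ang II. All Ang II-treated mice were lower, 2 of them far lower, and Psmb9 fell by 57.7%, the largest change of the 10 (log2 fold change -1.24, 95% interval -1.87 to -0.61, limma adjusted p = 0.0259).

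Psmb10 (ENSMUSG00000031897.9), the subunit encoded outside the MHC, had 165, 190.5, 191, 196 and 209.8 normalized counts with saline and 125, 147, 154, 184 and 196 with Ang II in IKKb+/+ mice. The groups overlapped and it did not pass (log2 fold change -0.25, 95% interval -0.61 to 0.11, limma adjusted p = 0.439). Psmb8 in IKKb-/- mice had 165, 182, 245 and 303 with saline and 100.01, 144, 161, 226 and 245 with Ang II (log2 fold change -0.38, limma adjusted p = 0.423). Psmb9 had 65.3, 87.4, 108 and 115 and 39.7, 48.1, 55.3, 67.4 and 100.4 (log2 fold change -0.63, limma adjusted p = 0.313). For both the Ang II-treated mice reached into the saline range. Psmb10 had 143, 144, 198 and 249.7 and 127, 128, 148, 191 and 191 in the same groups, of which 2 Ang II-treated mice lay below and 2 saline-infused mice above the range of the other group (log2 fold change -0.21, limma adjusted p = 0.605).

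Nlrc5 (ENSMUSG00000074151.13), the transactivator of class I genes, had few reads. Its normalized counts were 71.2, 93.4, 98.8, 123 and 175 in saline-infused and 50.6, 61.6, 62.1, 69.1 and 73.6 in Ang II-treated IKKb+/+ mice. The highest Ang II-treated mouse was above the lowest saline-infused mouse, and the log2 fold change of -0.76 had a 95% interval of -1.39 to -0.13 (limma adjusted p = 0.155). Nlrc5 passed in 3 of the other ways of fitting the data, with only the IKKb+/+ groups in the fit (limma adjusted p = 0.0607), with array weights (limma adjusted p = 0.0765) and with DESeq2 (adjusted p = 0.0608). Nlrc5 in IKKb-/- mice had 39.6, 81.1, 83.97 and 106 with saline and 28.6, 51.4, 70.7, 78.6 and 87.7 with Ang II, and the groups overlapped (log2 fold change -0.30, limma adjusted p = 0.678).

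Transcripts of some cell type markers also differed with Ang II in IKKb+/+ mice. The summed normalized counts of 8 smooth muscle markers were 334569 to 446231 with saline and 464324 to 647800 with Ang II and did not overlap, and 3 of the 8 rose (Tagln, Cnn1 and Des). Those of 8 endothelial markers were 22037.5 to 37112.9 with saline and 12490.3 to 24232.1 with Ang II, and 1 of the 8 fell (Tek, the angiopoietin receptor, log2 fold change -1.08, limma adjusted p = 0.0299). Of these 8, 7 had a log2 fold change below 0 (49.3% of all genes), with a median of -0.67. Unadjusted p was under 0.05 for 4 of them, beside 3018 of all 14845 genes. With the endothelial marker score as a covariate, 2 of the 10 genes passed, H2-K1 and Tapbp, the median of the 10 log2 fold changes being -0.40, and with the smooth muscle score, a term added after the data were seen, 0 of the 10 passed by limma, with a median of -0.39. Calls over all 14845 genes tested went from 1286 without a score to 510 with the endothelial and 143 with the smooth muscle score. Of 7 pan-leukocyte markers 0 passed by limma, their sums were 1664 to 2313 with saline and 1294 to 2138 with Ang II, and with their score as a covariate 6 of the 10 genes passed. Of 4 dendritic cell markers 2 were tested and 0 passed by limma (Itgax at -0.97 and Zbtb46 at -0.44, 1 with an unadjusted p under 0.05), and their sums were 271 to 322 with saline and 186 to 256 with Ang II, without overlap. Of 7 macrophage markers 0 passed as well by limma (6770 to 8845 with saline and 5344 to 8307 with Ang II), with 0 at an unadjusted p under 0.05 in the pan-leukocyte or the macrophage list, and 1 of 6 fibroblast markers fell (Lum). All 6 fibroblast markers were below 0, with a median of -0.56, and 1 had an unadjusted p under 0.05. The sums of 7 T cell markers (27.1 to 68.4 and 21.4 to 55.5), of 5 NK cell markers (1.59 to 29.3 and 0 to 65.1) and of 4 B cell markers (11.9 to 59.8 and 4.28 to 71.5) were low, and no gene of any of these lists was at 0 in all mice of an IKKb+/+ group. Mitochondrial transcripts held 5.99 to 9.07% of reads with saline and 10.1 to 14.1% with Ang II, without overlap, and with this share as a covariate 8 of the 10 genes passed. Over all genes, 1301 were called with the pan-leukocyte score and 1794 with the mitochondrial share. The part of cell makeup in the fall was not tested beyond these values.

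The Ang II effect was then compared between genotypes. The difference of the log2 fold changes, IKKb-/- minus IKKb+/+, was above 0 for all 10 genes, as for 49.8% of all genes tested, and its median was 0.46. The 10 genes vary together between mice, so their signs are not independent of each other. By limma 0 of the 10 differences passed, with adjusted p from 0.375 to 0.961, and 0 of all genes passed (0%). Unadjusted p was under 0.05 for 2 of the 10, beside 1654 genes, 11.1% of all. They were H2-D1 (difference 0.64, 95% interval 0.10 to 1.18, limma adjusted p = 0.375) and Tap2 (0.47, 95% interval 0.070 to 0.87, limma adjusted p = 0.379). Of the 10, edgeR and DESeq2 also called 0, and of all genes they called 3 and 279. The median difference over the 10 genes was 0.31 without mice X2385 and X2406, 0.22 with the endothelial score and -0.0040 with the smooth muscle score as a covariate. With the last score 2 of the 10 genes passed for Ang II in IKKb-/- mice (Tapbp, limma adjusted p = 0.0374, and Psmb9, limma adjusted p = 0.0305). Of all genes, 1020 passed there with this score, against 785 without it. The summed normalized counts of 5 adipocyte markers were 57.9 to 392 with saline and 541 to 9222 with Ang II in these mice, without overlap, all 4 of the markers tested rose, and their part in the values of the 10 genes was not tested.

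**Figure D2:**
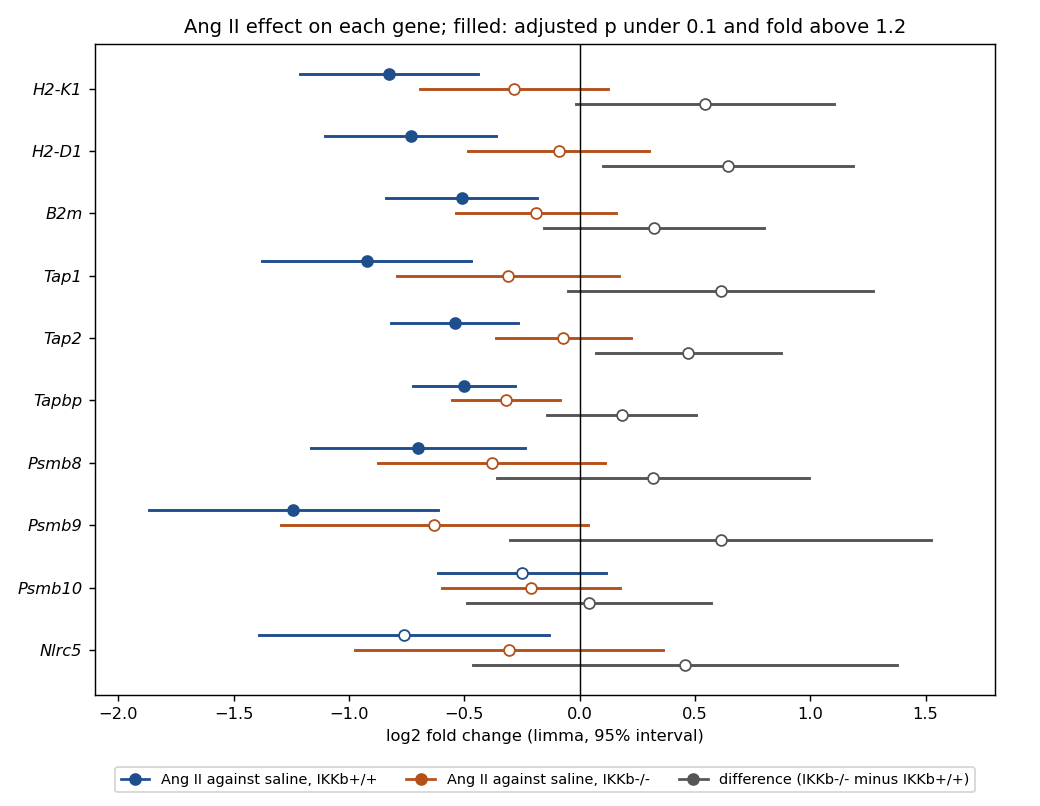
Log2 fold change of Ang II against saline (horizontal axis, limma) for each gene, with points for IKKb+/+ and IKKb-/- mice. Grey points give the difference of these log2 fold changes (IKKb-/- minus IKKb+/+). Bars are 95% intervals, and filled points are past the threshold. In IKKb+/+ mice 8 points are filled and in IKKb-/- mice 0, and the intervals of the genotypes overlap for each gene.

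For the 8 genes other than H2-D1 and Tap2, the 95% interval of the difference held 0. For H2-K1 it was -0.018 to 1.10, for Tap1 -0.050 to 1.27, for Psmb9 -0.30 to 1.52, and for Nlrc5 -0.46 to 1.37. The remaining intervals were those of B2m (-0.16 to 0.80), Tapbp (-0.14 to 0.50), Psmb8 (-0.36 to 0.996) and Psmb10 (-0.49 to 0.57). A single Ang II-treated IKKb-/- mouse, X2383, was the lowest of its group for 8 of the 10 genes, and X2384 was the highest for 7.

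Without Ang II, the 10 genes were slightly lower in IKKb-/- than in IKKb+/+ aorta in their means, and 0 of them passed by limma, edgeR or DESeq2, where limma called 5.47% of all genes tested in either direction. All 10 log2 fold changes were below 0 (52.4% of all genes), from -0.55 for Nlrc5 to -0.069 for Psmb8, and the median was -0.27. The groups overlapped for each of the 10, and H2-D1 was the 1 gene with an unadjusted p under 0.05 (log2 fold change -0.43, 95% interval -0.82 to -0.034, limma adjusted p = 0.218). The summed pan-leukocyte markers were also lower in these mice, at 901 to 1176 against 1664 to 2313 without overlap, 3 of the 7 passed as lower (Ptprc, Laptm5 and Lcp1), and with their score as a covariate the median of the 10 genes was 0.086. That median was -0.041 with the smooth muscle score, -0.049 with the endothelial score and -0.46 with the mitochondrial share as a covariate. The part of cell makeup in the lower values was not tested beyond these values.

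With Ang II, 8 of the 10 genes were above 0 in IKKb-/- relative to IKKb+/+ mice (49.1% of all genes), and the median was 0.21. It was -0.064 with the smooth muscle score and 0.053 with the mitochondrial share as a covariate, and 0.14, 0.12 and 0.12 without mouse X2358, X2384 or X2385. The highest was 0.42 for Psmb9 (limma adjusted p = 0.535), the lowest -0.089 for Nlrc5, and the groups overlapped for each gene. By limma, edgeR and DESeq2 0 of the 10 passed, none of the 10 had an unadjusted p under 0.05 by limma, and limma called 0.128% of all genes. This comparison and the one with saline share the mice of the Ang II comparisons, so they are not separate evidence of the differences above.

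Each immunoproteasome subunit takes the place of a constitutive one, Psmb8 that of Psmb5, Psmb9 that of Psmb6 and Psmb10 that of Psmb7, so the ratio of the normalized counts of a pair was taken in each mouse. Psmb8 over Psmb5 was 0.718, 0.795, 0.851, 0.985 and 1.0039 in saline-infused and 0.263, 0.341, 0.411, 0.491 and 0.503 in Ang II-treated IKKb+/+ mice. All ratios with Ang II were below those with saline, and the mean log2 ratio was lower by 1.14, at -1.36 ± 0.39 against -0.21 ± 0.21 (SD, n = 5 each, two-sided exact permutation test, p = 0.00794, the smallest this design allows, adjusted p = 0.0476 over 12 tests, where ratios passed at an adjusted p under 0.05). Psmb9 over Psmb6 was 0.0913, 0.0977, 0.114, 0.121 and 0.131 with saline and 0.0169, 0.0219, 0.0563, 0.0676 and 0.0679 with Ang II. This pair was separate as well and differed by -1.48, at -4.66 ± 0.96 against -3.19 ± 0.21 on the log2 scale (n = 5 each, exact permutation test, p = 0.00794, adjusted p = 0.0476). With any 1 of the 5 saline-infused mice left out, the adjusted p of the exact permutation test was 0.0952 for the first pair and 0.143 for the second. Over 12 tests, a ratio that alone has the smallest possible p cannot reach an adjusted p under 0.05, with or without a mouse left out. With no mouse left out, both ratios had that p.

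Psmb10 over Psmb7 overlapped between the same groups, at -2.56 ± 0.32 with Ang II and -2.19 ± 0.11 with saline on the log2 scale (n = 5 each, exact permutation test, p = 0.0556, adjusted p = 0.175). For IKKb-/- mice the log2 ratio with Ang II differed from that with saline by -0.34 for Psmb8 over Psmb5, -0.55 for Psmb9 over Psmb6 and -0.15 for Psmb10 over Psmb7, the groups overlapped, and none of the 3 passed (adjusted p 0.175 to 0.719). None of the 6 ratios compared between genotypes passed (adjusted p 0.175 to 0.794). The constitutive subunits themselves did not pass in IKKb+/+ mice, with log2 fold changes of 0.44 for Psmb5, 0.24 for Psmb6 and 0.12 for Psmb7 (limma adjusted p = 0.122, 0.311 and 0.535).

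**Figure D3:**
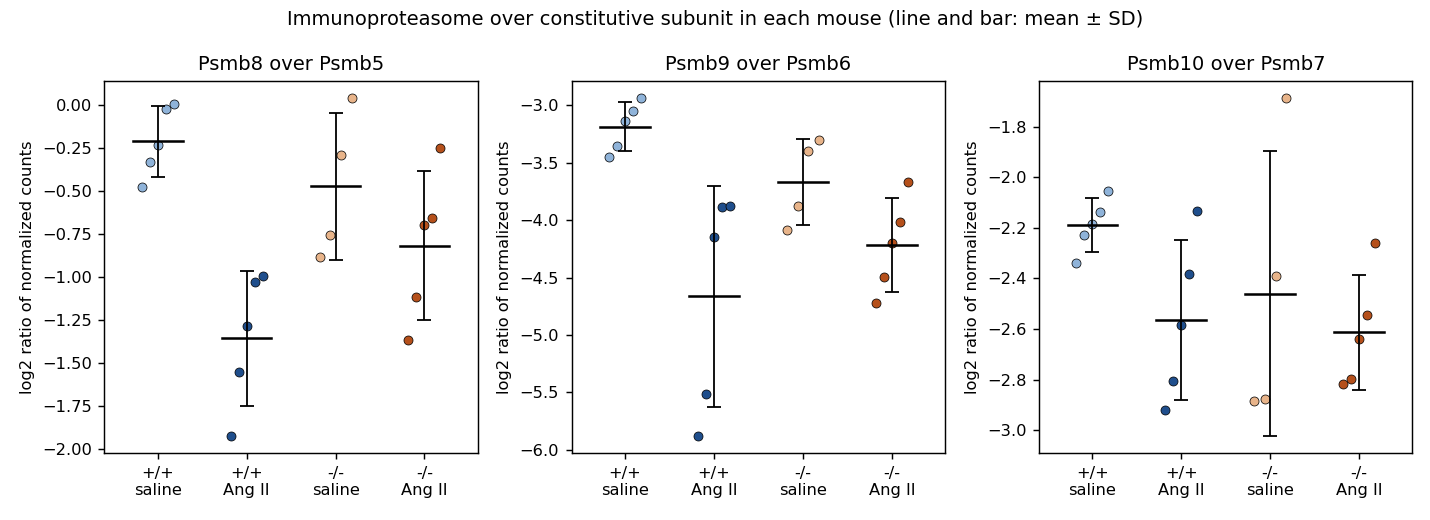
Log2 ratio of the normalized counts of an immunoproteasome subunit to those of its constitutive counterpart (vertical axes) in each mouse of the 4 groups, with mean ± SD. The IKKb+/+ Ang II points lie below all IKKb+/+ saline points for Psmb8 over Psmb5 and Psmb9 over Psmb6, and overlap them for Psmb10 over Psmb7.

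The genes also varied together from mouse to mouse within the groups. After the group mean of each gene was taken away, the 45 pairs of genes had a median Pearson r of 0.476 over 19 mice, from -0.258 to 0.893, and 21 pairs were above 0.5 and 2 below 0. The closest pairs were H2-K1 with Psmb8 (r = 0.893), H2-K1 with H2-D1 (0.884), H2-D1 with Psmb8 (0.867), H2-D1 with B2m (0.852) and the neighbours Tap1 and Psmb9 (0.828). Psmb10 stood most apart, with a median r of 0.271 with the other 9 genes, and Nlrc5 (0.385) and Tap2 (0.387) came next. The points share libraries, size factors and tissue makeup, so these values describe the 19 mice and carry no test.

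Among 11411 genes with a mean of at least 50 normalized counts, the within-group deviations of 10 others followed the mean of these genes most closely. They were Ly6e (r = 0.899), Gbp7 (0.886), Ly6c1 (0.886), Uba7 (0.884), Card10 (0.88), Ifngr1 (0.872), Ptger4 (0.87), Rtp4 (0.868), Gbp5 (0.865) and Unc45b (0.865). Irf1 was at r = 0.849 (rank 23). The endothelial markers Cdh5 and Pecam1 had r of 0.715 and 0.694, the pan-leukocyte marker Ptprc 0.283, the macrophage marker Adgre1 0.598 and the smooth muscle marker Myh11 -0.827. These values too describe the 19 mice, whose points share libraries and tissue makeup.

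Other genes of the route were read from lists chosen by function. Of 18 other class I and class I-like heavy chains 13 were tested, and 6 fell and 0 rose in IKKb+/+ mice (median log2 fold change -0.91), against 2 and 1 in IKKb-/- mice (-0.18). Of all genes tested 4.33% fell and 4.33% rose in IKKb+/+ mice, and 2.69% fell and 2.59% rose in IKKb-/- mice, which is the background for this list and the next ones. H2-Q4 fell in both genotypes (-1.32 and -0.96), as did H2-Q6 (-1.79 and -1.66), of which 14.7% of read-length windows also occur in other genes. H2-Q7 (-1.44, with a like share of windows), H2-T24 (-1.33), H2-M3 (-0.63), which presents formylated peptides, and Hfe (-0.97), the iron regulator, fell in IKKb+/+ mice. Cd1d1, which presents lipids, rose in IKKb-/- mice (2.24, limma adjusted p = 0.0982). It was low there, at 5.08 to 17.9 normalized counts with saline and 11.1 to 170 with Ang II, and the groups overlapped.

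The helpers of loading split by direction. Of 9 trimming and loading genes, Erap1, the peptidase that trims peptides in the endoplasmic reticulum (-0.46), and Tapbpl, a relative of tapasin (-0.50), fell in IKKb+/+ mice, and the cytosolic peptidases Lap3 (0.37) and Npepps (0.29) rose. The chaperones Calr (0.78), Canx (0.35) and Pdia3 (0.53), which also serve general protein folding, rose in IKKb-/- mice and 0 of the 9 fell. With saline, the means of these chaperones were 7934, 5476 and 8278 normalized counts in IKKb-/- and 10654, 6995 and 10761 in IKKb+/+ mice. With Ang II they were 13703, 7009 and 12115 in IKKb-/- and 13820, 7710 and 11838 in IKKb+/+ mice. None of the 3 constitutive catalytic subunits and none of 11 other subunits of the 20S proteasome passed in either genotype by limma, with medians of 0.24 and 0.20 in IKKb+/+ and -0.058 and -0.052 in IKKb-/- mice. Unadjusted p was under 0.05 for 1 and 4 of them in IKKb+/+ mice and for 0 and 0 in IKKb-/- mice. Of 8 activators and assembly factors Pomp, the chaperone of proteasome assembly, rose in IKKb+/+ mice (0.28, limma adjusted p = 0.0856), and the interferon-induced activator genes Psme1 (-0.029) and Psme2 (0.011) did not pass.

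Upstream of the genes, most regulators did not pass. Of 9 factors that act at class I and class II promoters, Rfx5 fell in IKKb+/+ (-0.67) and in IKKb-/- mice (-0.76), as did Ciita, the class II transactivator (-1.47 and -1.51). Of 15 interferon signalling genes 14 were tested, all but Ifng, the ligand itself. Irf1 fell in IKKb+/+ mice (log2 fold change -1.05, 95% interval -1.46 to -0.65, limma adjusted p = 0.00663) and was at -0.11 in IKKb-/- mice, and the difference was 0.94 (limma adjusted p = 0.269). Ifngr2, a chain of the interferon gamma receptor, fell in both genotypes (-0.38 and -0.35). Of 9 NF-kB genes, Nfkbia, the inhibitor that NF-kB itself induces, rose in IKKb+/+ mice (0.89, limma adjusted p = 0.0107) and was at 0.064 in IKKb-/- mice, and no other passed.

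Interferon-induced genes outside the class I route were lower as well. Of 15 interferon gamma-induced genes, 12 fell in IKKb+/+ mice (median -1.48) and 5 in IKKb-/- mice (median -0.61). The guanylate-binding protein genes Gbp4 (-2.36 and -2.07) and Gbp5 (-1.86 and -1.69) fell in both genotypes, and Igtp (-1.59) and Cd274, which encodes PD-L1 (-0.99), in IKKb+/+ mice. Of 11 type I interferon-induced genes, 7 fell in IKKb+/+ mice (median -1.32), among them Isg15 (-1.82) and Ifit3 (-1.83), and 0 passed in IKKb-/- mice by limma (median -0.49), where 2 had an unadjusted p under 0.05. All 6 genes of MHC class II presentation fell in IKKb+/+ mice (median -1.42), and H2-Eb1 alone in IKKb-/- mice (-1.11, list median -1.04). These shares stand beside 4.33% of all genes that fell in IKKb+/+ and 2.69% in IKKb-/- mice, and the lists were picked with earlier results of these mice known, so their directions are not independent evidence.

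**Figure D4:**
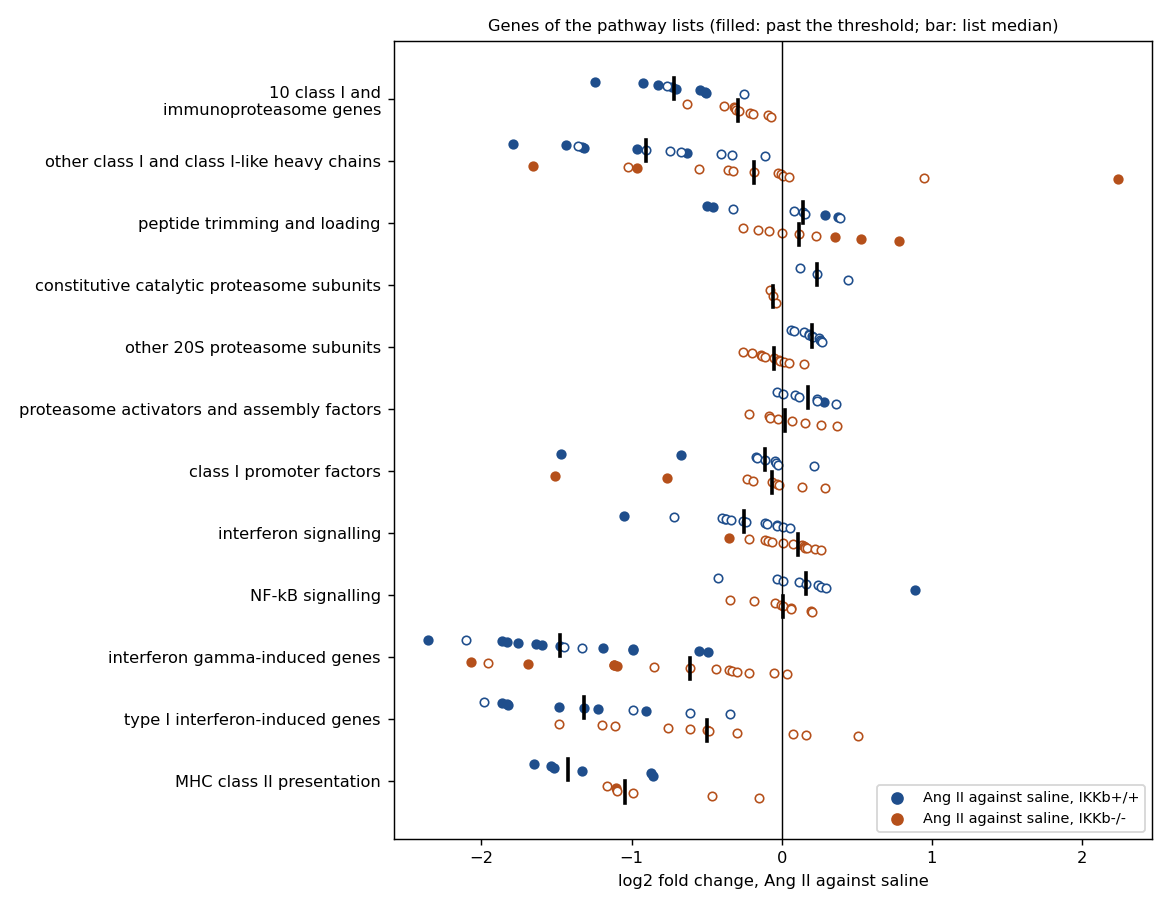
Log2 fold change of Ang II against saline (horizontal axis) for the genes of each list (vertical axis) in IKKb+/+ and IKKb-/- mice, a point for each gene, filled past the threshold, with a bar at the list median. The 10 class I and immunoproteasome genes (medians -0.72 and -0.29) lie between the proteasome lists, near 0, and the interferon-induced and class II lists, which reach medians of -1.48 and -1.42.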

How the data were processed

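RNA of 19 aortas was measured as poly(A) libraries. The authors trimmed single reads of 84 bases with Trimmomatic 0.35, aligned them with STAR 2.7.1a to GRCm38 (Gencode genes), took read counts from STAR and normalized them with DESeq2 1.30.1. The deposited values are a signal of normalized counts. They were whole multiples of 1 read within 0.02 reads for 100% of values, so reads were recovered, 11382573 to 19906694 per mouse. This depth covers counting error only. Values were compared as log2(value + 1), which understates changes of low genes, in limma 3.58.1 (R 4.3.3, eBayes with trend) with 4 group means, two-sided, with Benjamini-Hochberg adjustment over 14845 genes. The threshold was 0.1 for the adjusted p together with 1.2 for the fold change. Ratios were compared by exact permutation tests, at an adjusted p under 0.05. The genes, lists and tests were chosen with earlier results of these data known. Those named are the 10 genes, list genes past the threshold or with a role in the route, and the 10 most alike. Alternatives were a pseudocount of 4, no filter, only the compared groups, array weights, TMM, edgeR 4.0.16 and DESeq2 1.42.0 on recovered reads, stricter thresholds, marker scores and each mouse left out. The smooth muscle score, the mitochondrial share and the removal of X2385 and X2406 were added after seeing the data. The fits were tested on simulated data. Exon lengths and overlaps came from Gencode M21, promoters from RefSeq. Some genes are not reported here.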

Additional observations from a re-analysis of the deposited data

Results flagged for a closer look

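In the 56 groups of 4 or 5 mice examined (10 genes, 3 subunit ratios and Ikbkb in 4 groups each), 2 held a mouse far from the others by Dixon's criterion, where chance gives about 1 in 20. Tap1 had 92.9 normalized counts in the Ang II-treated IKKb-/- mouse X2383 and 140 to 157 in the other 4 mice, a gap of 0.737 of the whole range. The same mouse was the lowest of its group for 8 of the 10 genes. Tapbp had 2714 normalized counts in the saline-infused IKKb+/+ mouse X2378 and 2189 to 2318 in the other 4, a gap of 0.755 of the range. Without X2383 no call of the 10 genes or of the ratios changed, and the median log2 fold change of the 10 genes for Ang II in IKKb-/- mice was -0.15 in place of -0.29. Without X2378 Psmb8 was not called in IKKb+/+ mice (limma adjusted p = 0.119), and the ratios of Psmb8 to Psmb5 and of Psmb9 to Psmb6 were no longer under an adjusted p of 0.05 (exact permutation test, adjusted p = 0.0952 and 0.143), as with each of the other saline-infused IKKb+/+ mice left out. Over 12 tests, a ratio that alone has the smallest possible p stays above an adjusted p of 0.05, with or without a mouse left out.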

How the results depend on the processing

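No paired analysis was possible because the groups share no replicate numbers. In IKKb+/+ mice, 8 of the 10 genes passed, and 8 or 9 passed with a pseudocount of 4, without a filter, with only the compared groups, with array weights, with TMM, edgeR or DESeq2, with the mitochondrial share and without X2385 and X2406. It was 6 at an adjusted p under 0.05, 5 at a fold change above 1.5, 6 with the pan-leukocyte, 2 with the endothelial and 0 with the smooth muscle score, and 6 to 8 with each mouse left out. In IKKb-/- mice, 0 passed, but 1 (Tapbp) by DESeq2, 2 (Tapbp and Psmb9) with the smooth muscle score, and 0 to 1 with each mouse left out (Tapbp without X2409, limma adjusted p = 0.0751). The other comparisons gave 0 throughout by the tools run. With each mouse left out, the log2 ratio in IKKb+/+ mice differed by -1.23 to -1.001 for Psmb8 over Psmb5, by -1.67 to -1.17 for Psmb9 over Psmb6 and by -0.48 to -0.29 for Psmb10 over Psmb7, which passed without X2356 (exact permutation test, adjusted p = 0.0317). This last ratio, not called otherwise, differed by -0.29 to 0.11 (without X2403) for Ang II in IKKb-/- mice and by -0.14 to 0.060 between the Ang II-treated genotypes. Counts over all genes moved as well. For Ang II in IKKb+/+ mice they went from 1286 to 510 with the endothelial and 143 with the smooth muscle score. In IKKb-/- mice they went from 785 to 296 without X2385 and X2406, and for the genotypes with saline from 812 to 19 without the same 2 mice. No log2 fold change of a called gene turned its sign. Under other settings 633 values kept their side of the threshold, 21 lost a call, 6 gained a call, and 30 uncalled ones moved across 0. With each mouse left out, these counts were 534, 14, 1 and 21. The causes were not tested. Depth limits Nlrc5 and Psmb9 most.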
